A study of Homo sapiens with 12 samples.

Results

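DoxR-v is a doxorubicin-resistant neuroblastoma line that received SAHA (vorinostat), an inhibitor of histone deacetylases, during its selection, and it was set here against WT, the untreated parental cells. The comparison covers the 3 arrays titled as doxorubicin resistant and treated with SAHA and the 3 wild-type arrays, 6 of the 12 arrays in the series, and runs over 12093 named genes. All groups were human neuroblastoma cells of bone marrow origin labelled SK-N-SH. DoxR-v cells had been carried through stepwise doxorubicin to a dose about 2 log units above the IC50, where they survived 5 passages, with SAHA at its IC25 given at each log step. WT cells had neither drug, WT-v cells had SAHA alone and DoxR cells had doxorubicin alone, and levels in the last 2 of these are quoted only beside genes named in DoxR-v vs WT. Each group is 1 line, so the treatment cannot be told apart from anything else that sets that line apart. The RNA came as triplicates that are not stated to be separate cultures, so the p-values measure only the spread between these samples and may be technical. Whether drug was present at harvest was not stated.

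Doxorubicin is an anthracycline that inserts into DNA and traps topoisomerase II on broken strands. Cells commonly withstand it through efflux by P-glycoprotein, the product of ABCB1, through detoxifying enzymes, or through altered checkpoint and death responses. Histone deacetylases remove acetyl groups from histones and other proteins, and their inhibition changes the transcription of many genes. Neuroblastoma arises from the sympathoadrenal lineage, whose cells make catecholamines and store neuropeptides in dense-core granules.

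The labelled cell type was checked first. All 10 of the 11 sympathoadrenal markers that were tested were detected on every DoxR-v and WT array, CHGA at 12.90 to 13.53 over the 12 arrays, CHGB at 12.81 to 13.40 and ISL1 at 11.78 to 12.66. Levels are log2 normalized intensities, on which the brightest probe reached 14. MYCN was detected on 12 of 12 arrays at 13.66 to 13.95, with only 38 of 21609 tested probes brighter in DoxR-v and 15 brighter in WT, while MYC was detected on 2 arrays and fibronectin (FN1) on no array. SK-N-SH is known as a line without MYCN amplification that expresses MYC, so these values go against that label and the cells are called here only by it. Schwann markers gave 0 tested genes of 4, and leukocyte and endothelial markers 1 of 6, the monocyte gene CD14 (log2 difference -1.22). Of 4 epithelial markers EPCAM (at least 1.16-fold higher) and KRT19 (0.61) were tested, and their summed level was 7.18 to 7.91 in DoxR-v and 6.79 to 7.15 in WT. Of 5 mesenchymal markers tested, VIM and CD44 were called higher (described below), 1 was called lower and 1 was undetected in both groups. They summed to 11.86 to 12.38 in DoxR-v and 9.70 to 9.87 in WT, a sum that rests mostly on the brightest members. Arrays correlated at 0.988 to 0.992 within DoxR-v, 0.982 to 0.987 within WT and 0.953 to 0.966 between them, and 15551 to 16734 probes were detected on DoxR-v arrays against 14969 to 16233 on WT arrays. On the second principal component WT replicate 3 lay away from WT replicates 1 and 2, and 5790 of 21609 probes were called without it, against 4821 (22.3%) with it.

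DoxR-v differed from WT at many genes, about as often upward as downward. A gene was called where limma gave an adjusted p below 0.1 and a fold above 1.5. By this rule 1525 genes rose (12.6%) and 1426 fell (11.8%) of 12093, or 24.4% in all. At an unadjusted p below 0.05, 24.3% were higher and 21.2% lower, and the DoxR-v and WT arrays did not overlap for 46.2% of genes. The median difference was 0.02. Scaling each array to a common median moved it to 0.32 and gave 3829 rises and 559 falls. That scaling used the median of all 47323 probes, of which 14969 to 16734 were detected on these arrays, so it rests on undetected, background-level signal. The balance of rises and falls thus depends on the normalization, and directions below are read against these all-gene values. The plot of difference against level shows large changes at all but the highest levels.

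**Figure D1:**
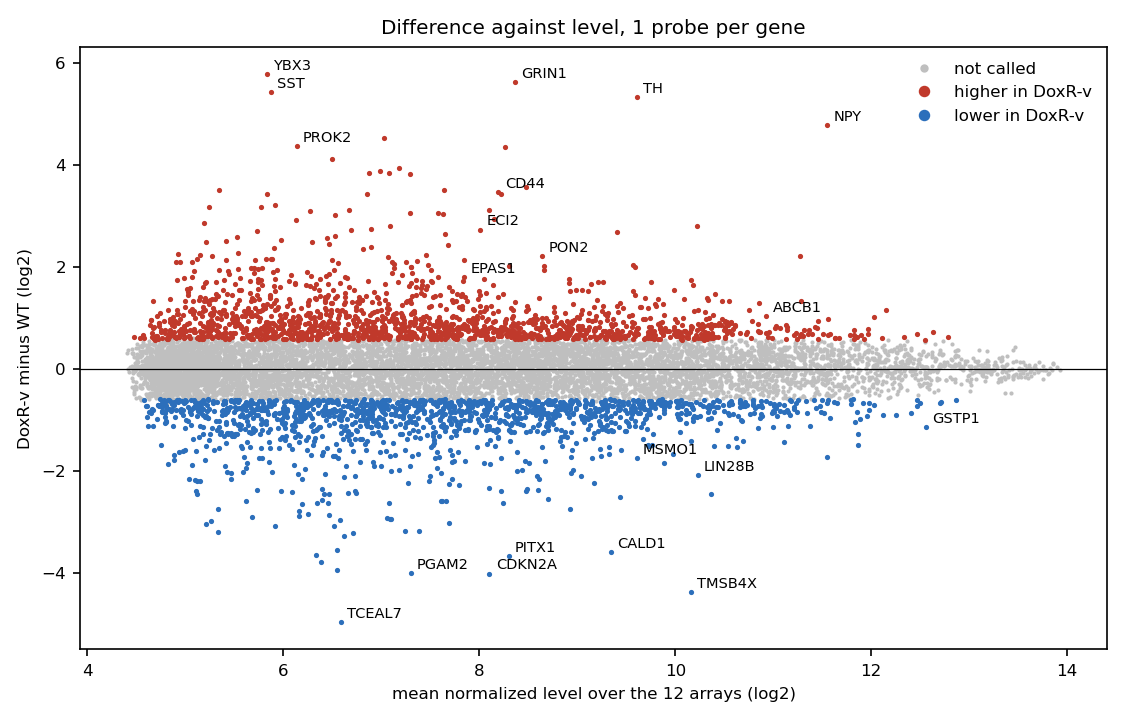
Log2 difference of DoxR-v minus WT (y axis) against mean normalized log2 level over the 12 arrays (x axis) for 12093 genes, 1 probe per gene. Red points are the 1525 genes called higher, blue points the 1426 called lower and grey points were not called; rises of over 5 on the log2 scale are YBX3, GRIN1, SST and TH.

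Several secreted peptides of the nervous system were high in DoxR-v and low or undetected in WT. Of 17 neuropeptide precursors tested, 6 rose and 1 fell, with a median difference of 0.29 against 0.02 over all genes, or 0.03 after each gene's chromosome median was taken away, and median scaling gave 7 and 1. SST encodes somatostatin, which inhibits hormone release. Its level was 10.08, 9.20 and 10.58 in DoxR-v and 4.46, 4.39 and 4.68 in WT. It was detected on all 3 DoxR-v arrays and on no WT array, and was at least 23.3-fold higher in DoxR-v (log2 5.44, SE 0.25, limma adjusted p = 7.94e-09). A fold written as at least sets the bright group against the dim group's own signal or the lowest detected signal, whichever is higher on each array. DoxR (mean 4.59) and WT-v (mean 4.43) had no detected SST either. NPY, a cotransmitter of sympathetic neurons, was at 13.53, 13.41 and 13.49 in DoxR-v and at 8.35, 9.24 and 8.47 in WT, a rise of 27.7-fold. It was the brightest of the 6 rises, and its mean was 12.86 in DoxR and 11.17 in WT-v. PROK2, a ligand of G protein-coupled receptors, read 9.54, 8.92 and 9.02 in DoxR-v against 4.71, 4.88 and 4.77 in WT, at least 13.5-fold higher. CALCB, which encodes a calcitonin gene-related peptide, read 8.97, 8.88 and 8.53 in DoxR-v against 4.75, 4.66 and 4.63 in WT, at least 10.4-fold higher. Both were undetected in WT and WT-v, and CALCB averaged 7.96 in DoxR. Neuromedin U (NMU) rose 8.78-fold and VIP 2.04-fold. The fall was in adrenomedullin (ADM, log2 -1.36), and galanin (GAL) differed by -0.20.

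The promoter of SST is shown because SST is the peptide gene that was detected in no group but DoxR-v. The sequence is the 250 bases before the RefSeq start on GRCh38.p14, chr3:187670395-187670644 on the minus strand, with the cyclic AMP response element TGACGTCA in capitals, 47 bases upstream of the start.
SST: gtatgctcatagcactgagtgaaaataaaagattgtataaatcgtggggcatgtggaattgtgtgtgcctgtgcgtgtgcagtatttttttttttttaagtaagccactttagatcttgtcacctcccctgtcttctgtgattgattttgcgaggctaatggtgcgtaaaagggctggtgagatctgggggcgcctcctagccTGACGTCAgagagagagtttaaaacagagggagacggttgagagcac
This palindrome was present in 1.65% of 35116 promoters of that length and in 3.57% of the 9680 tested genes with an entry. Of the 24 matched genes among the 30 largest rises, SST alone held it. TH, CALCB and GAL are not in the promoter table.

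Of 12 genes of the dense-core granule tested, 3 rose and 1 fell (median -0.04). VGF, a granule peptide precursor, was at 13.45, 13.35 and 13.03 in DoxR-v and 12.56, 12.42 and 12.64 in WT (log2 0.73). SNAP25, a membrane fusion protein, rose by 0.94, CADPS, which primes granules for release, by 0.69, and secretogranin SCG2 fell by 0.89.

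In the catecholamine pathway the largest of the 15 differences was at the rate-limiting enzyme. TH, tyrosine hydroxylase, was at 13.18, 13.13 and 12.92 in DoxR-v and 7.45, 8.04 and 7.70 in WT, a 40.7-fold rise (SE 0.15, adjusted p = 2.26e-10). Every DoxR-v array was near the top of the scale. WT-v averaged 13.11, and TH was undetected in DoxR (mean 4.53). DDC and DBH, which convert dopa to dopamine and dopamine to noradrenaline, were high in both groups and were not called (0.58 and 0.22). PNMT, which makes adrenaline, was detected on 2 of 3 DoxR-v arrays and on no WT array, with a fitted difference of 0.86. Among carriers the vesicular transporter SLC18A1 fell by 0.82 and the noradrenaline transporter SLC6A2 by 0.64, although median scaling called neither. The SLC6A2 call ended without DoxR-v replicate 2 (-0.55) or WT replicate 3 (-0.57). Monoamine oxidase A (MAOA), on the X chromosome, rose by 1.27.

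Lineage factors were mostly level or lower. Of 17 adrenergic transcription factors tested, 4 fell and 0 rose in the limma fit (3 higher and 4 lower at an unadjusted p below 0.05), while median scaling called 4 higher and 2 lower. HAND2, a basic helix-loop-helix factor of sympathetic neurons, was at 9.61, 9.79 and 9.93 in DoxR-v and 11.25, 11.49 and 11.07 in WT (log2 -1.49). All DoxR-v arrays lay below all WT arrays. INSM1, a zinc-finger factor of neuroendocrine cells, was undetected in DoxR-v and at least 2.93-fold lower. LIN28B, a repressor of let-7 maturation that can drive neuroblastoma in mice, was at 8.96, 9.25 and 8.83 in DoxR-v and 10.92, 10.99 and 11.32 in WT (log2 -2.06). It averaged 11.16 in WT-v and 9.67 in DoxR.

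Neuronal receptors and structural genes changed in both directions. GRIN1, the obligatory NMDA receptor subunit, was at 10.44, 10.53 and 10.14 in DoxR-v and undetected in WT at 4.58, 4.67 and 4.97, at least 31.1-fold higher. Its mean was 10.26 in DoxR and 8.08 in WT-v. The related subunit GRIN3A (at least 1.64-fold) and the metabotropic receptor GRM8 (at least 1.73-fold) were detected in DoxR-v and not in WT. GABRB1, a GABA-A receptor subunit, was undetected in DoxR-v at 4.40, 4.49 and 4.32 and read 8.27, 8.13 and 8.15 in WT, at least 7.38-fold lower. The muscarinic receptor CHRM3 rose by 2.11 and the potassium channel KCNH2 by 1.40, and the leak channel KCNK3 fell by 1.97. The heavy neurofilament NEFH was at 11.17, 11.22 and 10.87 in DoxR-v and 7.90, 8.03 and 8.17 in WT, 8.32-fold higher, and averaged 5.89 in DoxR and 5.52 in WT-v. BDNF, a neurotrophin, was at 8.59, 8.64 and 8.43 in DoxR-v and undetected in WT, at least 8.85-fold higher, although neither of its 2 other tested probes was called. Among axon guidance genes 6 rose and 5 fell of 30, including the ephrin receptor EPHA5 (at least 2.25-fold higher) and the semaphorin SEMA3F (1.63, detected on 1 WT array) among rises and the netrin receptor UNC5A (-1.44) among falls.

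YBX3 was among the largest rises. It encodes a cold shock domain protein of the Y-box family, named for a DNA element with an inverted CCAAT box. Its level was 10.34, 10.62 and 9.54 in DoxR-v and 4.38, 4.44 and 4.32 in WT, at least 27.0-fold higher (log2 5.79, SE 0.21, adjusted p = 1.46e-09). It was undetected in WT, DoxR (mean 4.42) and WT-v (mean 4.36). The family member YBX1 was high in both groups (difference 0.38, not called). Other transcripts undetected in WT were the calcium-binding protein gene GCA at 9.27, 9.50 and 8.95 in DoxR-v (at least 14.2-fold), the zinc-finger factor gene MECOM (at least 14.4-fold, at 1 of 3 probes, of which 2 shared the sign), EVA1C (at least 6.18-fold), the adhesion gene NECTIN3 (at least 6.14-fold) and the reticulon gene RTN1 (at least 4.77-fold). MECOM was brighter in DoxR (mean 10.31), GCA in WT-v (mean 9.84), and EVA1C and RTN1 were undetected in both. GNG11, a G protein gamma subunit, was at 11.65, 11.31 and 11.34 in DoxR-v and 7.66, 7.74 and 7.02 in WT, 15.5-fold higher, and was undetected in DoxR. Largest among the falls, TCEAL7 on the X chromosome was undetected in DoxR-v at 4.66, 5.03 and 4.57 and read 9.76, 9.68 and 9.66 in WT, at least 21.1-fold lower. The homeobox gene PITX1 was at 6.62, 6.53 and 5.55 in DoxR-v and 9.96, 9.95 and 9.79 in WT, 12.7-fold lower. The surface glycoprotein gene CD24 fell 12.4-fold, the lectin-like gene CHODL at least 5.73-fold and FGL1, a fibrinogen-like protein gene, 6.69-fold. The plot of the 60 largest changes shows that the DoxR-v arrays do not overlap the WT arrays for any of these genes, which the naming rule required.

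**Figure D2:**
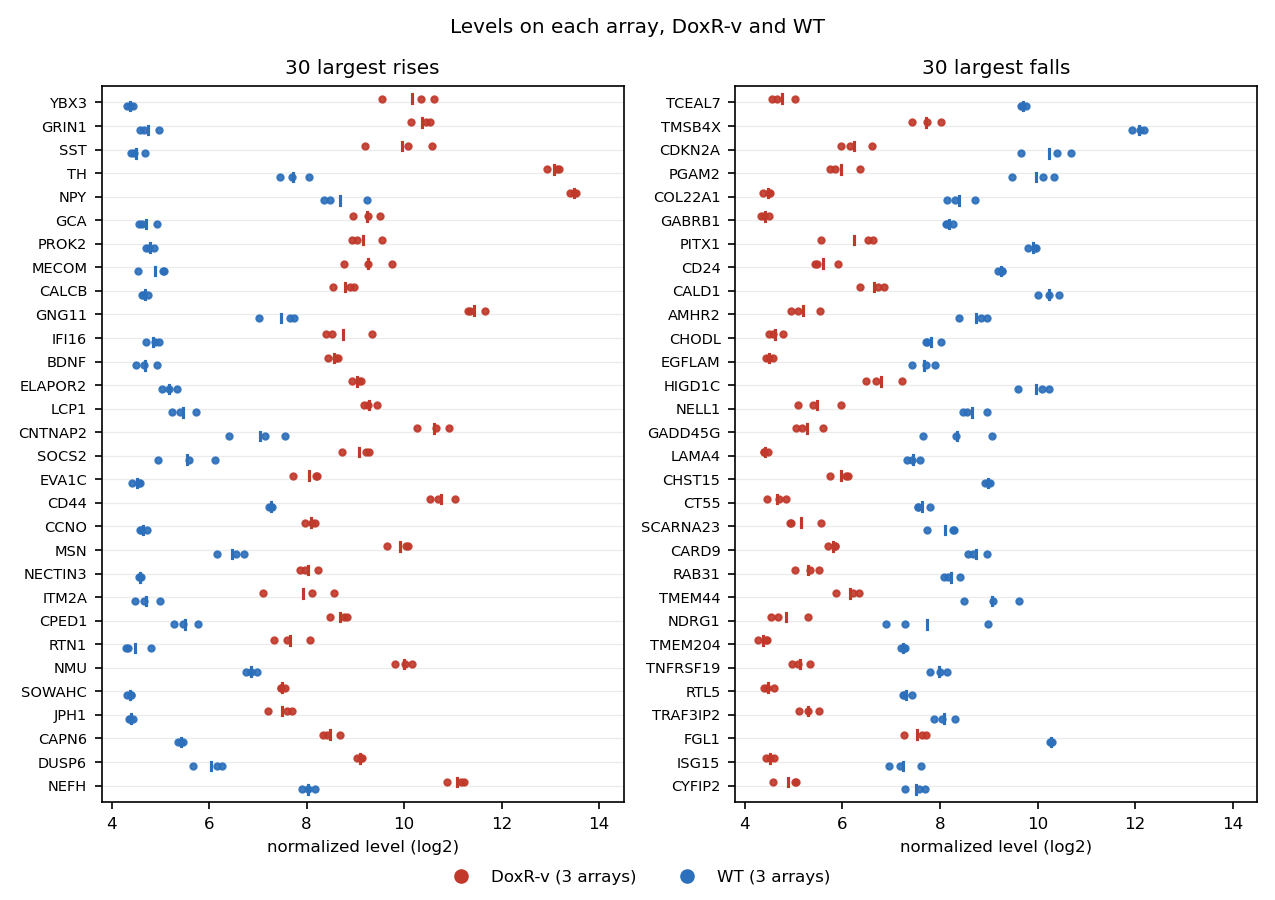
Normalized log2 level (x axis) on each of 3 DoxR-v arrays (red) and 3 WT arrays (blue) for the 30 largest rises and the 30 largest falls that met the naming rule; short vertical lines are group means. NDRG1 shows a wide spread in WT (8.99, 6.90 and 7.29), whereas TH is tight in DoxR-v.

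Actin regulators included some of the strongest changes in the data. Of 35 tested, 9 rose and 6 fell (median 0.16), and 14 and 4 under median scaling. TMSB4X, thymosin beta-4, which holds actin monomers, was at 7.72, 7.42 and 8.01 in DoxR-v and 12.19, 12.11 and 11.94 in WT, 20.6-fold lower. It averaged 12.20 in DoxR and 8.64 in WT-v. CALD1, caldesmon, which binds actin and tropomyosin, was at 6.84, 6.73 and 6.36 in DoxR-v and 10.24, 10.01 and 10.44 in WT, 12.0-fold lower (SE 0.17, adjusted p = 1.01e-08). DoxR and WT-v had means of 10.67 and 9.81. Moesin (MSN), which ties actin to the membrane, was at 10.07, 9.64 and 10.04 in DoxR-v and 6.16, 6.72 and 6.54 in WT, 10.9-fold higher, while the related ezrin (EZR) fell by 0.75. The Arp2/3 subunit ARPC1B rose by 1.55. Plastin LCP1, an actin bundler, was at 9.43, 9.25 and 9.18 in DoxR-v and 5.24, 5.41 and 5.72 in WT, where it was detected on 1 array. Tubulins and microtubule proteins gave 7 rises and 6 falls of 36, with TUBA4A (2.82) and TUBB4A (2.75) higher and MAP7 (-1.85), STMN4 (-1.58) and MAP1B (-1.38) lower.

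Surface and matrix genes were likewise mixed. CD44, the hyaluronan receptor, was at 11.04, 10.69 and 10.52 in DoxR-v and 7.29, 7.24 and 7.28 in WT, 11.2-fold higher. It averaged 10.39 in DoxR and was undetected in WT-v. The intermediate filament gene VIM was at 11.60, 11.14 and 11.06 in DoxR-v and 8.91, 9.12 and 9.12 in WT, 4.65-fold higher, with DoxR still higher (mean 13.10). Endoglin (ENG) rose at least 4.33-fold, the proteoglycan gene VCAN 6.29-fold, the integrin gene ITGA6 4.43-fold (detected on 2 and 1 of the WT arrays) and the protocadherin gene PCDH7 at least 5.04-fold. All 4 called collagens of 10 tested fell, led by COL22A1, which was undetected in DoxR-v (at least 8.54-fold lower), and median scaling called 3 of them lower and 0 higher. The laminin chain LAMA4 fell at least 4.43-fold and SPARC, a matricellular protein gene, at least 2.57-fold. Over the whole mesenchymal list 3 genes rose and 7 fell of 24, and median scaling gave 5 and 3.

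Genes of fatty acid breakdown were shifted upward. Of 28 tested, 11 rose and 1 fell, with a median of 0.41 against 0.02 over all genes, or 17 and 0 under median scaling, and 5 rises on values without background correction. Taking away each gene's chromosome median left 0.40. ECI2, a peroxisomal enoyl-CoA isomerase, was at 10.61, 10.62 and 10.55 in DoxR-v and 7.99, 7.94 and 7.62 in WT, 6.70-fold higher. It was undetected in DoxR and averaged 8.91 in WT-v. ACOT4, a peroxisomal acyl-CoA thioesterase, was at 7.87, 7.98 and 7.82 in DoxR-v and 5.90, 5.65 and 5.67 in WT, 4.43-fold higher. The DoxR-v arrays were above all other groups for both genes. ACAD11, an acyl-CoA dehydrogenase, rose by 1.21, the carnitine octanoyltransferase CROT by 1.00, the peroxisomal thiolase ACAA1 by 0.89 and the medium-chain dehydrogenase ACADM by 0.69. HADH, the mitochondrial hydroxyacyl-CoA dehydrogenase, was the fall (-0.74), and CPT1A, the entry step for long chains, was not called (0.42).

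Genes of cholesterol synthesis went mostly the other way, with 11 falls and 1 rise of 25 (median -0.24), but 5 falls and 4 rises under median scaling, where the median was 0.17 against 0.32 over all genes. MSMO1, which removes methyl groups from sterols, was at 8.69, 8.44 and 8.76 in DoxR-v and 10.30, 10.33 and 10.47 in WT (log2 -1.74, SE 0.14, adjusted p = 1.25e-06). NSDHL, the next enzyme of that step, was at 8.21, 8.0 and 8.06 in DoxR-v and 10.00, 9.86 and 9.61 in WT (log2 -1.73). EBP, sterol isomerase, was at 8.59, 8.71 and 8.84 in DoxR-v and 10.25, 10.35 and 10.21 in WT (log2 -1.56). For all 3 enzymes every DoxR-v array was below every WT array. HMGCS1, which makes HMG-CoA, was at 9.72, 9.57 and 9.73 in DoxR-v and 11.18, 10.96 and 11.05 in WT (log2 -1.39), and averaged 10.69 in DoxR and 11.34 in WT-v. DHCR7 (-1.04), MVK (-0.89), SQLE (-0.78), and the regulators INSIG1 (-0.78) and MYLIP, which degrades the LDL receptor (-2.23, detected on 1 DoxR-v array), also fell. CYP51A1, the lanosterol demethylase on chromosome 7, was the rise, at 8.34, 8.24 and 8.76 in DoxR-v and 7.27, 7.54 and 7.15 in WT (log2 1.13). NSDHL and EBP lie on the X chromosome, where most genes were lower (below), and without chromosome medians the list stood at -0.33. The plot of lipid genes places the 2 lists side by side.

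**Figure D3:**
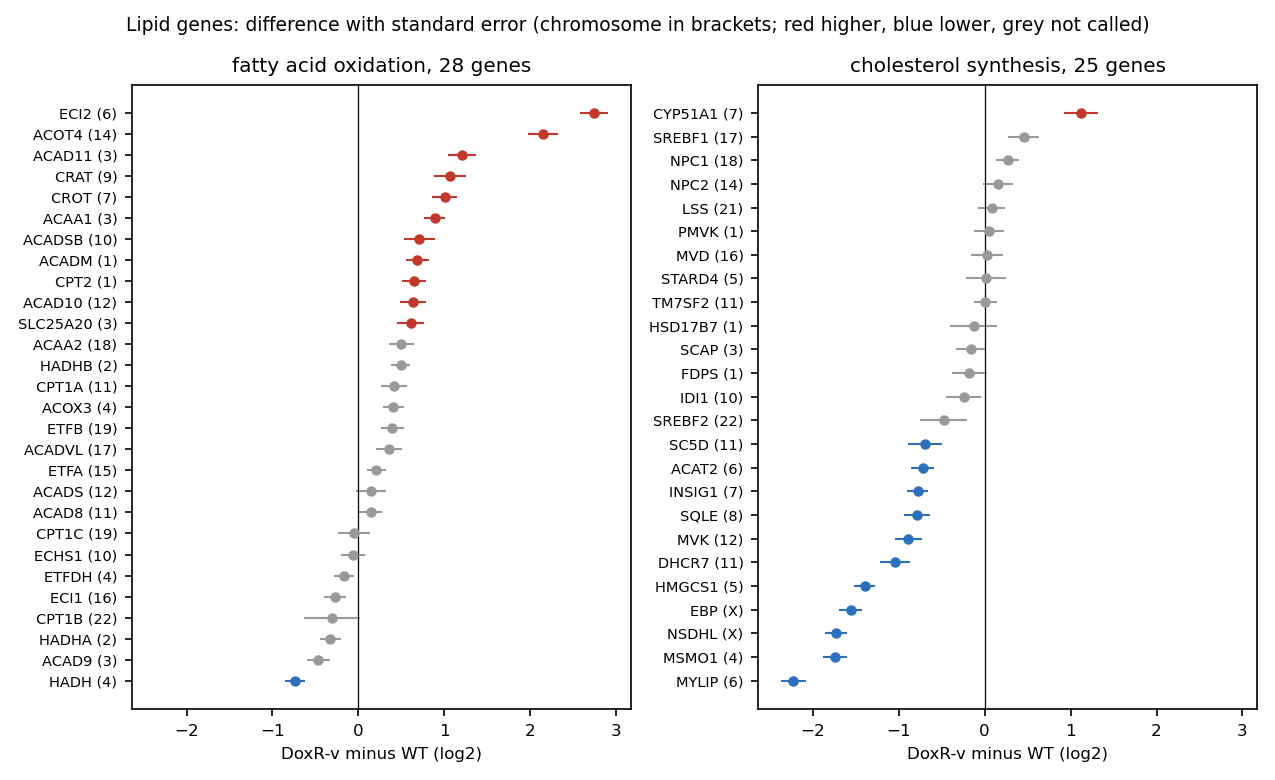
Log2 difference of DoxR-v minus WT (x axis, with standard error bars) for 28 fatty acid oxidation genes (left) and 25 cholesterol synthesis genes (right), with the chromosome in brackets. Red points were called higher, blue lower and grey not called; most called points are right of 0 on the left panel and left of 0 on the right panel.

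Promoters of the 2 sterol genes with the largest falls among the enzymes are shown, with a short motif that both hold. A role of the motif in the falls was not tested. MSMO1 lies on chromosome 4 and NSDHL on X, where the median differences were -0.30 and -0.62 (below). Both promoters are the 250 bases before the RefSeq start on GRCh38.p14, MSMO1 at chr4:165327419-165327668 and NSDHL at chrX:152830813-152831062, both on the plus strand. Capitals mark CCAAT boxes, written CCAAT on the strand shown and ATTGG where they lie on the other strand.
MSMO1: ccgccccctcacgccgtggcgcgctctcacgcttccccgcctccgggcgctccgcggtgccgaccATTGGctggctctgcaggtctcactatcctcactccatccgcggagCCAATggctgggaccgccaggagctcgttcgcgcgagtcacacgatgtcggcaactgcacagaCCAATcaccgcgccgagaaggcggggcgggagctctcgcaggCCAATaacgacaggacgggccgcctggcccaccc
NSDHL: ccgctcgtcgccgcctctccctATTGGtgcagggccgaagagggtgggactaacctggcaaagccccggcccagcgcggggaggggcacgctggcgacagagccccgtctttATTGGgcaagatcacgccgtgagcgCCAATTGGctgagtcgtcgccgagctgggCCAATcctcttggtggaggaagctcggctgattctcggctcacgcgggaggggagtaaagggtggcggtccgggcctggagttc
MSMO1 held 4 boxes and NSDHL 5, of which 2 overlap at 113 and 110 bases before the start. The motif was present in 32.0% of 35116 promoters and 42.3% of tested genes with an entry, in 18 of 23 matched cholesterol genes and in 9 of the 9 matched that fell. Among all matched genes it was in 43.7% of those called higher and 43.6% of those called lower. Among matched fatty acid oxidation genes 6 of 23 held it.

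Of 10 hypoxia-inducible factors and their regulators 3 rose and 0 fell in limma (4 higher and 2 lower at an unadjusted p below 0.05), or 5 and 0 under median scaling. EPAS1, which encodes HIF-2 alpha, was at 8.80, 9.63 and 8.63 in DoxR-v and 7.88, 6.54 and 7.18 in WT (log2 1.82, SE 0.30, adjusted p = 0.000611). The groups did not overlap, and EPAS1 averaged 7.02 in DoxR and 8.16 in WT-v. HIF1A read 9.29, 9.12 and 8.87 in DoxR-v and 8.36, 8.05 and 8.86 in WT (log2 0.67, adjusted p = 0.0221). The lowest DoxR-v array was level with the highest WT array, and the call ended without WT replicate 2 (0.48) or DoxR-v replicate 1 (0.57). Of 21 HIF target genes 10 fell and 3 rose (median -0.43), against 5 and 5 under median scaling. VEGFA, the angiogenic growth factor, was at 5.92, 5.93 and 5.44 in DoxR-v and 8.16, 7.65 and 7.18 in WT (log2 -1.90), and NDRG1, a differentiation-related gene, was at 4.68, 4.53 and 5.30 in DoxR-v, where it was detected on 1 array, and 8.99, 6.90 and 7.29 in WT. Its fitted difference was -2.88, or -2.25 without WT replicate 1. ANKRD37 (-1.25), the glucose transporter gene SLC2A1 (-0.86) and DDIT4 (-0.95) also fell, and PFKFB3, which sets the rate of glycolysis through fructose bisphosphate, rose by 2.03. Among 19 glycolytic genes 4 rose and 3 fell. Muscle PGAM2 was at 5.84, 5.74 and 6.36 in DoxR-v and 10.12, 10.33 and 9.48 in WT (16-fold lower). ALDOC was lower by 1.58, and PFKP (1.71, at 1 of 2 probes), PFKL (1.36) and ENO2 (0.92) were higher. The respiratory chain was nearly level, with 1 rise and 3 falls of 69 (median -0.05), or 9 higher and 12 lower at an unadjusted p below 0.05.

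Genes linked to doxorubicin itself changed moderately. ABCB1 was at 11.20, 11.24 and 10.90 in DoxR-v and 9.90, 9.89 and 10.38 in WT, 2.08-fold higher (log2 1.05, SE 0.15, adjusted p = 0.000207). All DoxR-v arrays were above all WT arrays, and WT-v averaged 10.41 and DoxR 12.15. Of 16 tested neighbours of ABCB1 on chromosome 7, 7 rose and 0 fell in limma (9 and 0 at an unadjusted p below 0.05), with a median of 0.46, or 0.15 after the chromosome median was taken away. ELAPOR2, a lysosomal and endosomal protein gene, was at 9.08, 9.11 and 8.94 in DoxR-v and 5.03, 5.19 and 5.34 in WT (at least 12.4-fold higher), above DoxR (mean 7.74), whereas CROT was higher in DoxR (mean 8.56) than in DoxR-v.

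The ABCB1 promoter is shown because the gene encodes the pump that exports doxorubicin. The 250 bases lie at chr7:87600885-87601134 on the minus strand of GRCh38.p14, before 1 of 2 starts in the table. This start was printed because it held the motif, and the other held none in its 250 bases. Capitals mark CCAAT boxes at 238 and 79 bases before the start.
ABCB1: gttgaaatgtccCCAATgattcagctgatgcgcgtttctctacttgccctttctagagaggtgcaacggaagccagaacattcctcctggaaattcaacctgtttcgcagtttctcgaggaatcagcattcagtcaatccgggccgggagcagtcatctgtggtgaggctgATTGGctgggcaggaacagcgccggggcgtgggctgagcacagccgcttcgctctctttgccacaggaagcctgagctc
The box nearer the start is inverted, as ATTGG. Such a pentamer occurred in 37.0% of the 27305 genes in the table.

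Other transporters moved both ways, with 5 of 23 ABC genes higher and 4 lower (9 and 2 under median scaling). ABCC9, a potassium channel subunit, was at 6.18, 6.20 and 6.48 in DoxR-v and 8.95, 8.64 and 8.51 in WT (log2 -2.42, called at 1 of 2 probes). ABCC5, which exports nucleotide analogues, was at 7.89, 7.66 and 7.40 in DoxR-v and 9.34, 9.50 and 9.46 in WT (log2 -1.79). It begins a run of 15 genes on chromosome 3, up to ETV5, with 10 falls and 0 rises (median -0.90). ABCB6, a porphyrin transporter gene, rose by 0.73. Among redox genes PON2, a paraoxonase of intracellular membranes, was at 10.53, 10.40 and 10.56 in DoxR-v and 8.29, 8.15 and 8.37 in WT. It was 4.68-fold higher (SE 0.14, limma adjusted p = 8.96e-08), with means of 7.75 in DoxR and 8.05 in WT-v. PON2 lies on chromosome 7 and ends a run of 15 genes from SRI with 9 rises and 0 falls (median 0.82). HMOX1 (1.98, detected on 1 WT array), NQO1 (1.68) and NFE2L2 (0.70) rose, as did glutathione synthetase GSS (1.06) and the uncoupling protein gene UCP2 (1.54). GSTP1, a glutathione transferase, was at 11.46, 11.92 and 11.93 in DoxR-v and 13.01, 12.93 and 12.74 in WT, 2.18-fold lower, and MGST2 fell by 1.67. AKR1C2, an aldo-keto reductase that can reduce anthracyclines, was at 7.29, 7.12 and 7.27 in DoxR-v and 9.94, 9.66 and 9.61 in WT, 5.67-fold lower, and its mean of 12.47 in DoxR was the highest of the 4 groups. Over the glutathione and antioxidant list 9 rose and 5 fell of 40 (median 0.06).

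Several mitotic genes were modestly higher, while 26 genes of G1 control gave 2 rises and 5 falls, or 6 and 3 under median scaling. Of 35 mitotic genes 7 rose and 0 fell (16 and 1 at an unadjusted p below 0.05), with a median of 0.27, and median scaling gave 17 and 0. AURKA, a spindle kinase gene, was at 11.69, 11.73 and 11.57 in DoxR-v and 10.93, 10.84 and 11.16 in WT (log2 0.68), and NDC80 (0.91), KIF23 (0.86), BUB1 (0.82), MKI67 (0.80), FOXM1 (0.78) and TPX2 (0.73) also rose. Against WT-v 0 of these mitotic genes were higher and 8 lower, and against DoxR 3 and 3. In DNA replication 5 rose and 2 fell of 34, in nucleotide synthesis 6 and 1 of 25, led by adenosine deaminase (ADA, 1.58), and in DNA repair 5 and 1 of 43. Over all genes 12.6% rose and 11.8% fell, so the rises in replication and repair were near the all-gene share. CDKN2A, which encodes p16 and ARF, was at 6.15, 5.97 and 6.61 in DoxR-v and 10.39, 10.68 and 9.66 in WT, 16-fold lower (SE 0.26, adjusted p = 1.85e-07). WT-v was as low (mean 6.57) and DoxR was not (9.37). Its neighbours CDKN2B (0.28) and MTAP (-0.44) were not called, and 4 of 12 tested neighbours on chromosome 9 fell (median -0.42), against 0 falls and 1 rise under median scaling. CDKN1A, which encodes p21, fell by 1.21, and targets of p53 gave 5 rises and 6 falls of 25. The atypical cyclin gene CCNO was at 8.17, 7.97 and 8.11 in DoxR-v and undetected in WT, at least 6.39-fold higher. The death receptor genes TNFRSF21 (-1.84) and TNFRSF10B (-1.30) fell, and GSDME, which encodes a pore-forming gasdermin, rose by 2.15. BCL2 was not called (-0.09), and none of the 7 anti-apoptotic genes tested was called in limma, with 2 higher and 0 lower at an unadjusted p below 0.05 and 3 higher under median scaling.

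SAHA inhibits the classical histone deacetylases. Of 10 classical histone deacetylase genes, HDAC8 (-0.83) and HDAC2 (-0.60) fell and none rose in limma, and median scaling called 1 higher and 0 lower. HDAC8 lies on the X chromosome and HDAC2 on chromosome 6, where the median differences were -0.62 and -0.38 (below). The HDAC2 call ended without WT replicate 3 (-0.46) or DoxR-v replicate 3 (-0.57). HDAC1 (-0.21) and HDAC3 (-0.16) were not called. Of 14 genes often induced by histone deacetylase inhibitors, 5 fell and 1 rose (median -0.36), against 3 and 2 under median scaling, with clusterin (CLU, -1.23, at 1 of 2 probes) and CDKN1A among the falls. The de novo DNA methyltransferase DNMT3B was at 7.66, 7.71 and 7.54 in DoxR-v and 6.15, 6.17 and 5.93 in WT (log2 1.55), with means of 7.11 in WT-v and 6.04 in DoxR. Histone genes gave 4 falls, 3 of them on chromosome 6, and 0 rises of 20 in limma. At an unadjusted p below 0.05, 2 were higher and 6 lower, but median scaling gave 1 fall and 5 rises.

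Probes for small RNAs of the nucleolus and Cajal bodies were shifted down, with 8 of 18 lower and 0 higher in limma (median -0.71). At an unadjusted p below 0.05, 9 were lower and 0 higher, and median scaling gave 7 and 0. Which transcripts these probes read, mature small RNAs or longer ones, was not tested. SCARNA11 was at 6.79, 6.43 and 7.75 in DoxR-v and 9.76, 9.42 and 8.96 in WT (log2 -2.39). SNORA12 (-2.22) and SNORD13 (-2.14) fell similarly. Interferon-stimulated genes gave 5 falls and 2 rises of 19, with ISG15 undetected in DoxR-v at 4.60, 4.43 and 4.52 and at 7.18, 7.61 and 6.95 in WT, OAS1 undetected in DoxR-v and at least 3.51-fold lower, and IFI16, a DNA sensor gene undetected in WT, at least 10.1-fold higher. The phosphatase gene DUSP6, which restrains ERK, was at 9.03, 9.12 and 9.14 in DoxR-v and 6.16, 5.68 and 6.28 in WT, 8.33-fold higher. Among developmental ligands the Notch ligand JAG2 (2.45) and the Wnt antagonist DKK1 (2.06) rose. Autophagy and lysosome genes gave 11 falls and 5 rises of 33, or 5 and 8 under median scaling, and 4 of the 11 falls were on the X chromosome, among them the proton pump subunits ATP6AP1 (-1.27) and ATP6AP2 (-0.83).

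Differences also varied with position in the genome. Taking away chromosome medians moved the cancer-testis list, described below, from -0.40 to 0.22 and the neuropeptide list from 0.29 to 0.03. It left the lists of fatty acid oxidation (0.41 and 0.40), mitosis (0.27 and 0.20) and hypoxia (-0.29 and -0.26) near their values. Over the 6888 genes with a mean level above 7, 12.1% rose and 12.2% fell, with a median of 0.03. On the X chromosome 116 of 218 genes fell and 4 rose (MSN, CAPN6, MAOA and SH3BGRL), with a median of -0.62, and 88.5% of its genes had a difference below 0. Chromosome 6 had 102 falls and 8 rises of 324 (median -0.38) and chromosome 4 had 64 and 8 of 241 (median -0.30). The X chromosome and chromosomes 4 and 6 together held 11.4% of genes, 33.5% of the falls and 2.4% of the rises. Chromosomes 7 and 14 were shifted up, with 97 rises and 11 falls of 364 (median 0.31) and 64 and 3 of 258 (median 0.33), and held 9.03% of genes but 19.3% of rises and 1.66% of falls. Chromosomes 20 (0.24) and 21 (0.23) were also above the median and 13 (-0.22) and 8 (-0.17) below it. These are descriptions, with no test by chromosome.

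Each array carried the same pattern. The median deviation of X genes from their 12-array mean was -0.26 to -0.22 on DoxR-v arrays and 0.37 to 0.41 on WT arrays. It was -0.33 to -0.26 in WT-v and 0.07 to 0.10 in DoxR. For chromosome 6 the DoxR-v arrays were at -0.23 to -0.18 and the WT arrays at 0.18 to 0.21, for chromosome 7 at 0.19 to 0.23 and -0.11 to -0.07, and for chromosome 14 at 0.20 to 0.24 and -0.07 to -0.05. DoxR-v and WT arrays did not overlap for 20 of 23 chromosomes, a count that includes small separations. On chromosome 11 the DoxR-v arrays were at -0.09 to -0.05 and the WT arrays at -0.03 to 0. On chromosome 5 they were at -0.09 and at -0.05 to 0. How many chromosomes would separate without a chromosome shift was not tested, so this count alone does not show one. Against WT-v the X median in DoxR-v was 0.03, and against DoxR it was -0.30.

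**Figure D4:**
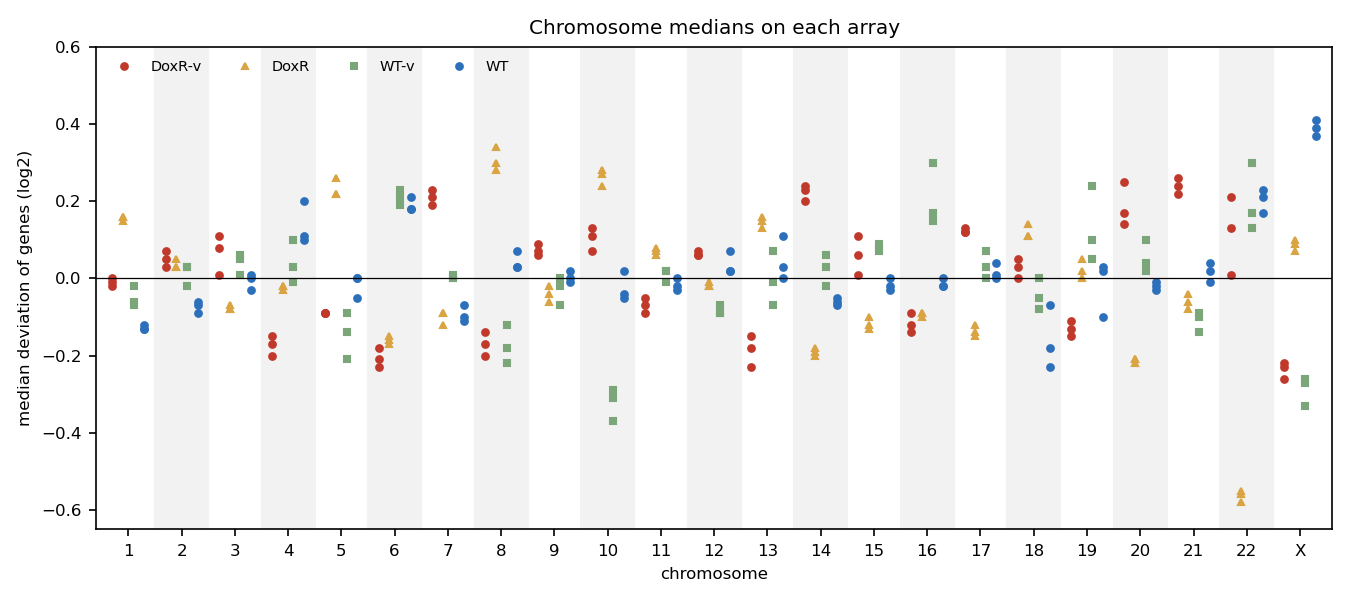
Median deviation of a chromosome's genes from their 12-array mean (y axis, log2) on each array, by chromosome (x axis), for genes with a mean level above 7. Each chromosome has DoxR-v (red circles), DoxR (yellow triangles), WT-v (green squares) and WT (blue circles) from left to right; on X the WT arrays are at 0.37 to 0.41 and the DoxR-v arrays at -0.26 to -0.22.

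Within some chromosomes the shift lay in a stretch of neighbouring genes, chosen here after the values were seen. On chromosome 9 the 43 genes from WASHC1 to RPP25L had 21 falls and 4 rises (median -0.54), with the DoxR-v arrays at -0.17 to -0.09 and the WT arrays at 0.32 to 0.45, while the 5 blocks from AGTPBP1 onward had medians of 0.12 to 0.27. CDKN2A lies in the lowered stretch. On chromosome 2 the 41 genes from NAGK to RPIA had 19 falls and 2 rises (median -0.56), between neighbours with medians of 0.15 and 0.04. On chromosome 3 the 38 genes from RFTN1 to TRAK1 had 14 rises and 3 falls (median 0.54), and the last 38, from PSMD2 to RPL35A, had 17 falls and 1 rise (median -0.51). On chromosome 4 the last 40 genes, from ANXA2P1 to FRG1, had 16 falls and no rises. On chromosome 7 the 41 genes from YWHAG to PTCD1, around ABCB1, had 19 rises and no falls (median 0.48), and on chromosome 14 the last 43 had 16 rises and 2 falls (median 0.42).

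The deepest run of 15 neighbouring genes was on chromosome 6, where all 15 genes from LIN28B to AMD1 fell, with a median of -1.20. It was preceded by ASCC3 (0.46, not called), and the falls went on through HDAC2 until NT5DC1 (0.06). Besides LIN28B this run held FOXO3, a stress-response transcription factor gene, at 8.16, 8.31 and 8.22 in DoxR-v and 10.08, 9.42 and 9.74 in WT. The autophagy gene ATG5, from the same region but too dim for the level limit, was at 5.91, 5.88 and 5.90 in DoxR-v and 7.52, 7.47 and 7.49 in WT. FYN, a SRC-family kinase gene just past it, was at 6.85, 6.65 and 6.88 in DoxR-v and 8.38, 8.60 and 8.79 in WT. Every one of these DoxR-v arrays was below every WT array. The ribosome assembly gene RPF2 (-1.43) and HDAC2 are from the same region, so members of several gene lists above came from this 1 stretch.

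On the X chromosome the fall was spread over its whole length, with block medians of -0.69 to -0.57. Against DoxR those blocks differed by -0.08, -0.04 and -0.08 in the 3 blocks up to TCEAL3, but by -0.82 and -0.98 in the last 2. Against WT-v they differed by 0.09, 0.09, 0.03 and 0.19, and by -0.64 in the last block, from RTL8B to VAMP7. Of the 7 cancer-testis and related genes that fell of 17 tested, 6 were on X, among them BEX2 (-1.67) and MAGED2 (-0.90). That list had a median of -0.40, but 0.22 after chromosome medians were taken away, and 1 rise and 2 falls under median scaling. No DNA copy number was measured in these samples, and its part in these values was not tested.

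**Figure D5:**
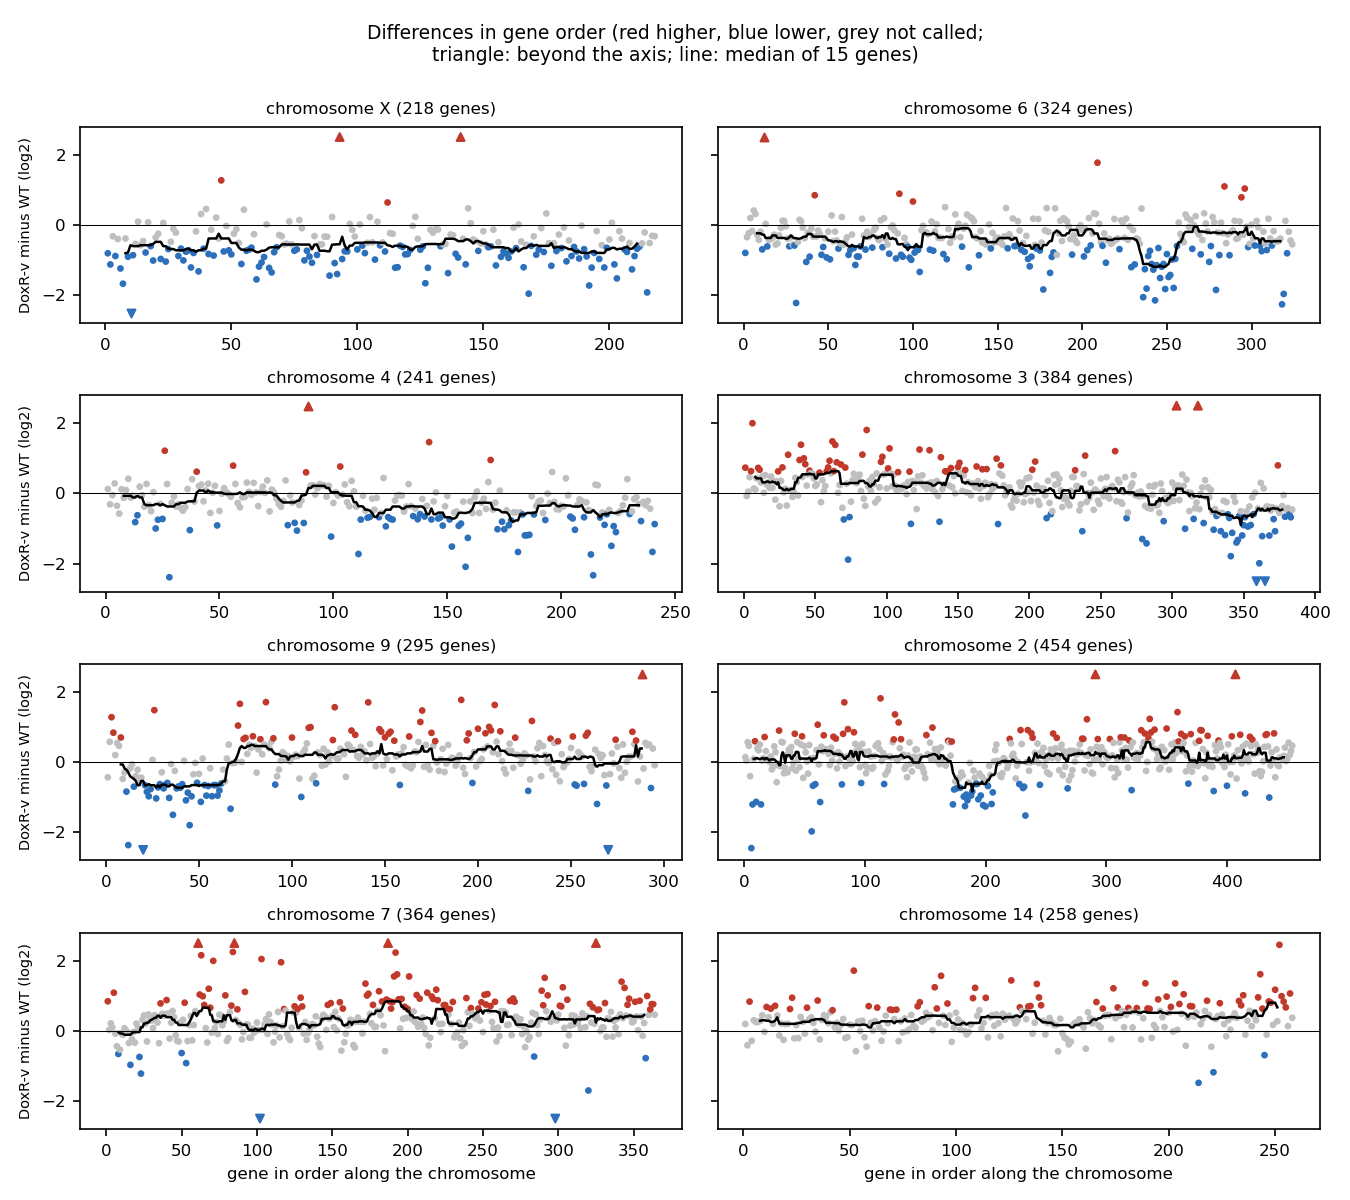
Log2 difference of DoxR-v minus WT (y axis) for genes in order along 8 chromosomes (x axis, rank of the gene from the start). Red points were called higher, blue lower and grey not called, triangles lie beyond the axis and the line is the median of 15 neighbouring genes; it stays below 0 over all of X, drops over the start of chromosome 9 and dips on chromosome 6 to -1.20.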

How the data were processed

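RNA from 12 cell samples (4 lines, 3 each) was hybridized to Illumina HumanHT-12 v4 arrays. The authors deposited non-normalized probe intensities with a detection p-value for each probe, as written by the scanner software, and a matrix of intensities that they quantile normalized with lumi 2.13.3 in R 3.0.1. From the deposited intensities and detection p-values, neqc in limma 3.58.1 (R 4.3.3; offset 16) corrected background and quantile normalized 47323 probes to log2 levels, so equal overall RNA content was assumed. Probes with a detection p below 0.01 on at least 1 array were tested (21609) by lmFit and eBayes, with 1 mean per line over 12 arrays and Benjamini-Hochberg adjustment over all tested probes, and a call needed an adjusted p under 0.1 with a change of more than 1.5-fold. The number of arrays limits the precision. A fit to simulated probes with known changes recovered 89% of 2-fold and 100% of 4-fold changes in DoxR-v vs WT (21609 probes, 200 changed). The changed probes all had a mean level above 7, and normal noise was added to normalized levels. These rates therefore do not cover dimmer probes or the background and normalization steps.

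Of all probes 30113 had 1 gene symbol, 8 several and 17202 none here, and 30074 matched a current gene. The brightest tested probe stood for a gene, and 11 genes had probes called in opposite directions. Named genes were the 30 largest rises and falls without overlap of groups, detected on all arrays of the brighter group, up to 6 called members each way per gene list and role, and 10 genes with listed neighbours, other members being set beside these. Stretches of neighbouring genes, and the CD14, SH3BGRL, ASCC3 and NT5DC1 values, were picked out after their values were seen. The comparison, its gene lists and their members were chosen with earlier results of these data known. Alternatives changed the normalization, background, offset, source of values, probe filter, arrays fitted, replicate block and probe summary. Promoters were taken from RefSeq (GRCh38.p14).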

Additional observations from a re-analysis of the deposited data

Results flagged for a closer look

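For 10 genes the difference between DoxR-v and DoxR was set against the difference between WT-v and WT (an interaction). The 10 were chosen with their pattern across the lines known, and most of them were picked out by the study on these arrays, so the values are a description and the p-values are not quoted. SST differed by 5.36 on the log2 scale between DoxR-v and DoxR and by -0.08 between WT-v and WT, an interaction of 5.44. For YBX3 the differences were 5.75 and -0.02, an interaction of 5.77. For TH they were 8.55 and 5.38, both upward, with an interaction of 3.17, and for PON2 2.75 and -0.22, with an interaction of 2.97. CALD1 differed by -4.02 and -0.42, an interaction of -3.60, GSTP1 by -1.01 and -0.12, an interaction of -0.89, and ABCB1 by -1.04 and 0.35, an interaction of -1.39. EPAS1 differed by 2.00 and 0.95, an interaction of 1.05. The interaction was -0.41 for HIF1A and 0.56 for CDKN2A. SST and YBX3 were undetected in DoxR, WT-v and WT, and TH in DoxR, so the fitted sizes for these genes rest on background signal there and are not measured folds. The lines were separate selections, so the schedule of SAHA and the line cannot be told apart in these terms.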

How the results depend on the processing

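With median scaling in place of quantile normalization, 6035 probes were higher and 884 lower (3829 and 559 genes), against 2457 and 2364 probes (1525 and 1426 genes), so 87.2% of called probes were higher, against 51.0%. The chromosome 14 median less that of all genes was then 0.33, against 0.30. Without background correction 2179 probes were called (1055 higher, 1124 lower), or 760 and 782 genes, and the medians were -0.58 for X, -0.28 for chromosome 4, -0.36 for 6, 0.23 for 7 and 0.25 for 14, against -0.65, -0.33, -0.42, 0.28 and 0.30. With an offset of 50, 3015 probes were called (1501 higher, 1514 lower), and the medians were -0.61 for X, 0.25 for 7 and 0.27 for 14. The authors' normalized values gave 1323 probes (609 higher, 714 lower), 444 and 508 genes, and medians of -0.48 for X, -0.23 for 4, -0.29 for 6, 0.19 for 7 and 0.22 for 14, and averaging the probes of a gene gave 0.26 for 14. Leaving out 1 array gave 4585 to 5790 called probes, and medians of -0.67 to -0.64 for X, -0.38 to -0.28 for chromosome 4, -0.44 to -0.40 for 6, 0.25 to 0.30 for 7 and 0.27 to 0.30 for 14. The causes of these shifts were not tested. None of the 442 called named genes reversed under any of these alternatives, and the 60 largest rises and falls kept their calls under all 15. Those 60 were chosen as the largest called differences on these same arrays, so few could have lost a call. Over the 442, 55% kept their call with the authors' values, 69.7% without background correction and 76% under median scaling. Replicate numbers did not pair the samples (correlations of deviations -0.118, -0.123 and -0.325). With the replicate number as a block, 99.8% of the 442 named calls were kept. Each line was compared as 3 arrays, dim probes gave only bounds, and neither protein nor DNA was measured.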

Other observations

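Some developmental genes not described above also differed between DoxR-v and WT. Of 19 HOX genes tested, 3 rose and 0 fell in limma (5 higher and 1 lower at an unadjusted p below 0.05), namely HOXC5 (1.10), HOXC4 (0.83) and HOXD3 (0.71), and median scaling gave 5 and 0. Other homeobox and EBF genes gave 5 rises and 4 falls of 17, with EBF1 (1.42), MSX1 (1.22) and IRX5 (0.98) higher and EBF3 (-1.35) lower. In the Wnt pathway 5 rose and 4 fell of 15, including the transcription factor TCF7L2 (1.95) and the receptor FZD7 (1.42, at 1 of 2 probes) among rises and the antagonist DKK3 (-1.16) among falls. Insulin-like growth factor and imprinted genes gave 4 rises and 5 falls of 19. IGFBP3, a binding protein for those growth factors, was undetected in WT and at 7.38, 6.70 and 6.76 in DoxR-v, at least 2.90-fold higher, and below DoxR (mean 8.80) and WT-v (mean 9.30). IGFBP4 (-1.80), the imprinted gene NDN (-1.60) and IGF2 (-0.87) fell.

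Among chaperones 4 rose and 1 fell of 20, or 7 and 1 under median scaling. HSPA1B, an inducible HSP70 gene, was at 11.12, 11.06 and 10.89 in DoxR-v and 10.18, 10.08 and 10.16 in WT (log2 0.88), without overlap. Its cochaperone BAG3 was at 7.42, 7.74 and 6.73 in DoxR-v and 9.31, 9.45 and 9.20 in WT (log2 -2.02), also without overlap. Urea cycle, serine and one-carbon genes gave 5 rises and 2 falls of 28 (median 0.29), or 14 and 0 under median scaling, with argininosuccinate synthase (ASS1, 1.17, at 2 of 3 probes) higher and the mitochondrial folate enzyme MTHFD2 (-0.73) lower.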
